A study of Mus musculus with 2 samples.

Results

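Interferon-responding phagocytes were the muscle phagocytes in which *Ifit1*, *Ifit2*, *Ifit3*, *Rsad2* and *Cxcl10* together made up at least 10 of every 10000 UMIs (unique molecular identifiers, each a counted transcript). A barcode, the tag of a droplet and taken here as a cell, also needed 3000 or more UMIs, of which at most 20% came from mitochondrial genes, and at least 1 UMI of the complement genes *C1qa*, *C1qb* and *C1qc*. It could hold at most 1 UMI of *Cd209a*, 2 of *Ccr7* and *Fscn1*, 1 of *Hp* and *Vcan* and 4 of *Col1a1*, *Col3a1* and *Col1a2*, which mark dendritic cells, monocytes and fibroblasts. Of 6724 barcodes, 261 met all criteria and are called members: 223 of 3290 in the Wt library and 38 of 3434 in the Gata3KO library. The members were chosen by their levels of the 5 interferon genes, so their levels in members are a description with no test. Barcodes that met every criterion except the interferon one, 697 in Wt and 847 in Gata3KO, served as comparison cells, and both sets together are called C1q phagocytes.

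The cells came from the tibialis anterior, a lower-leg muscle, of mice injected with 50 µl of 10 µM cardiotoxin, a snake venom toxin that kills muscle fibres. On day 4 live CD45+ CD11b+ Ly6G- leukocytes (negative for the dead-cell dye Zombie aqua) were sorted, and 8000 cells per genotype were loaded for droplet single-cell RNA sequencing. Wt mice were C57BL/6 and Gata3KO mice were C57BL/6:Cx3cr1CRExGata3fl/fl, in which Cre made from *Cx3cr1*, a gene of monocytes and macrophages, deletes floxed *Gata3*. The Wt label names neither Cre nor floxed alleles. The labels give no number, age or sex of the mice. Each genotype is 1 library, so no test was made, and a difference between the genotypes cannot be told apart from a difference between the mice or preparations. *Gata3* itself had 0 UMIs in the members of both libraries and 8 UMIs over all barcodes of each, so the deletion could not be checked in these cells.

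Cells answer type I interferons through the receptor chains *Ifnar1* and *Ifnar2*, whose kinases activate factors that bind interferon-stimulated response elements (ISRE) in promoters. Interferon gamma acts through *Ifngr1* and *Ifngr2* and gamma-activated sites (GAS) in promoters, and genes such as *Cxcl9*, *Ciita* and the guanylate-binding protein genes answer it strongly. *Cxcl10* can also be induced through NF-kappaB, the factor behind much of the inflammatory response to damage. In injured muscle, blood monocytes enter, become macrophages, clear dead fibres and then support new ones.

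The promoters of some genes that carry the results below are shown because they hold different elements. Each is the RefSeq window from 250 bases before to 50 bases after the gene's start (build GRCm38.p6), written from 5′ to 3′ on the gene's strand. Capitals mark, on either strand, a match to the ISRE core (GAAA repeated after any 2 bases) or to the NF-kappaB consensus. *Rsad2*, whose protein viperin blocks viral replication, *Ifit1*, which binds viral RNA, *Isg15*, a ubiquitin-like tag, and *Gbp2*, a GTPase, held ISRE matches. *Cxcl10*, a chemokine for T cells, held both, and *Cxcl2*, a chemokine for neutrophils, held overlapping NF-kappaB matches and no ISRE core. They lie at chr12:26456403-26456702 (*Rsad2*, minus strand), chr19:34640639-34640938 (*Ifit1*, plus), chr4:156200769-156201068 (*Isg15*, minus), chr3:142620413-142620712 (*Gbp2*, plus), chr5:92348840-92349139 (*Cxcl10*, minus) and chr5:90903649-90903948 (*Cxcl2*, plus).
Rsad2: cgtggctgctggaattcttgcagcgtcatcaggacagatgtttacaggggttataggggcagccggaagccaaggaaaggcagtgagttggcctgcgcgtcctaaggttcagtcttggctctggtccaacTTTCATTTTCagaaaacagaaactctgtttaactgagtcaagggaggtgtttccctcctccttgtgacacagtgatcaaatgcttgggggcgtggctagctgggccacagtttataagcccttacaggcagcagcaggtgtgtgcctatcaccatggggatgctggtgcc
Ifit1: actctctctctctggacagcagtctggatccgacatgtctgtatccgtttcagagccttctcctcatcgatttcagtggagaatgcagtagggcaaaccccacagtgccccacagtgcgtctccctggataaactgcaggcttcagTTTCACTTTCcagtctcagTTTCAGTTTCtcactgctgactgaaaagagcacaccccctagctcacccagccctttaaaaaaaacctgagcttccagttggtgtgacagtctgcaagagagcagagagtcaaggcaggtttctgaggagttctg
Isg15: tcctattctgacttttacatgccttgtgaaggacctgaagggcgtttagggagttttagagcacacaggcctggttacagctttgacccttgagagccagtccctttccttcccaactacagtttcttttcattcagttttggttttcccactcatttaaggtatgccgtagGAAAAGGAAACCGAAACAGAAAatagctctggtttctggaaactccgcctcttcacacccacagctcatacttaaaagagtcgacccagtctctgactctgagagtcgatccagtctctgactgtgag
Gbp2: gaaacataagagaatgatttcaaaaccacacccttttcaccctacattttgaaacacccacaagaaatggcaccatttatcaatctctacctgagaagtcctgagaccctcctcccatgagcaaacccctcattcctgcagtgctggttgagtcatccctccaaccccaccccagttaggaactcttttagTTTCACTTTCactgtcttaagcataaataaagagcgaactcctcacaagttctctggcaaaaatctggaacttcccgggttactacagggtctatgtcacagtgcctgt
Cxcl10: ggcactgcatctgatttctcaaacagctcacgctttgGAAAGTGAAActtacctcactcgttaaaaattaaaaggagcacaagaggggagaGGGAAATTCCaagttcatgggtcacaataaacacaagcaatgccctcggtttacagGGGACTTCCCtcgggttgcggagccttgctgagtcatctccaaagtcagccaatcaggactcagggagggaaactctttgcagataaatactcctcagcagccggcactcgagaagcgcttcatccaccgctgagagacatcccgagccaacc
Cxcl2: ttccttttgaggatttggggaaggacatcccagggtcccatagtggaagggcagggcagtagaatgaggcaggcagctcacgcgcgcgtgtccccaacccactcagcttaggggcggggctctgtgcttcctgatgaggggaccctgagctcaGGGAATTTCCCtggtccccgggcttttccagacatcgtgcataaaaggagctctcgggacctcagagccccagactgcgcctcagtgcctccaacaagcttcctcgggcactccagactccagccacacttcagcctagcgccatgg

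The ISRE match lay 120 bases before the start in *Rsad2*, 104 and 85 in *Ifit1*, 78, 72 and 66 in *Isg15* (overlapping one another), 59 in *Gbp2* and 213 in *Cxcl10*, counted from the match's 5′ base. The NF-kappaB matches lay 159 and 103 bases before the start of *Cxcl10*, and 97 and 96 before that of *Cxcl2*. Of all 27025 genes of the promoter table, 3.99% held the ISRE core, 9.55% the GAS sequence TTCNNNGAA (which reads the same on both strands) and 5.14% the NF-kappaB consensus. Among the 5 rule genes, 4 held the ISRE core, and the exception, *Ifit2*, held a GAS match in 1 of its windows. The windows of *Cxcl9* and *Ccl12*, not printed, held no ISRE, GAS or NF-kappaB match. A match is a stretch of letters and does not show binding.

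The label was checked against genes that the rule did not use. Of 28 measured antiviral effector genes outside the rule, among them *Isg15*, *Mx1* and *Usp18*, the summed level per cell had a median of 67.9 per 10000 UMIs in Wt members and 33.0 in Wt comparison cells, and 52.2 in Gata3KO members and 9.70 in Gata3KO comparison cells. Of Wt members 174 of 223, and of Gata3KO members 28 of 38, lay above the 75th percentile of their own library's comparison cells. The other 49 Wt and 10 Gata3KO members lay at or below that percentile. Above the comparison cells' median were 200 of 223 Wt and 32 of 38 Gata3KO members. The C1q criterion alone was weak: 73.1% of Wt and 60.3% of Gata3KO dendritic barcodes also had a C1q UMI. At equal depth (every cell thinned to 3000 UMIs) these shares were 41.0% and 34.5%, against 95.5% and 94.7% of members. Members had a median of 44 C1q UMIs in Wt and 27 in Gata3KO, and 206 and 32 of them had 3 or more. The macrophage genes *Adgre1* (274 CPM in Wt and 334 in Gata3KO members, UMIs of the gene scaled to a common total of summed UMIs), *Cd68* (861 and 908) and *Csf1r* (657 and 634) were present at like levels in both.

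Members had a median of 7389 UMIs in Wt and 9718 in Gata3KO, comparison cells 6163 and 8158. Their summed UMIs were 2114211 and 463889, so a ratio between members rests mainly on the precision of the 38 Gata3KO cells. The median share of mitochondrial UMIs was 7.63% and 8.15% in members. The libraries shared 2 barcode sequences, none of them a member's. The doublet caller Scrublet called 0 of 1119 Wt and 2 of 1004 Gata3KO barcodes that passed the depth and mitochondrial limits, too few to count as a working call, and none was a member. Intervals below are at the 95% level and cover counting error only.

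The members made up a far smaller share of the Gata3KO library. Of barcodes that passed the depth and mitochondrial limits, 223 of 1119 in Wt (19.9%, exact binomial interval 17.6 to 22.4%) and 38 of 1004 in Gata3KO (3.78%, 2.69 to 5.16%) were members, a difference of -16.1 percentage points and a 5.27-fold ratio. Of C1q phagocytes alone the shares were 24.2% (21.5 to 27.1%) and 4.29% (3.06 to 5.85%), a difference of -19.9 points. With every cell thinned to 3000 UMIs before the rule was applied, the shares of C1q phagocytes were 31.9% and 7.23%. The whole distribution of the rule score differed, not its upper end alone: the median score of comparison cells was 3.04 per 10000 in Wt and 0 in Gata3KO, and 139 of 920 Wt against 560 of 885 Gata3KO C1q phagocytes had no UMI of the 5 genes.

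**Figure D1:**
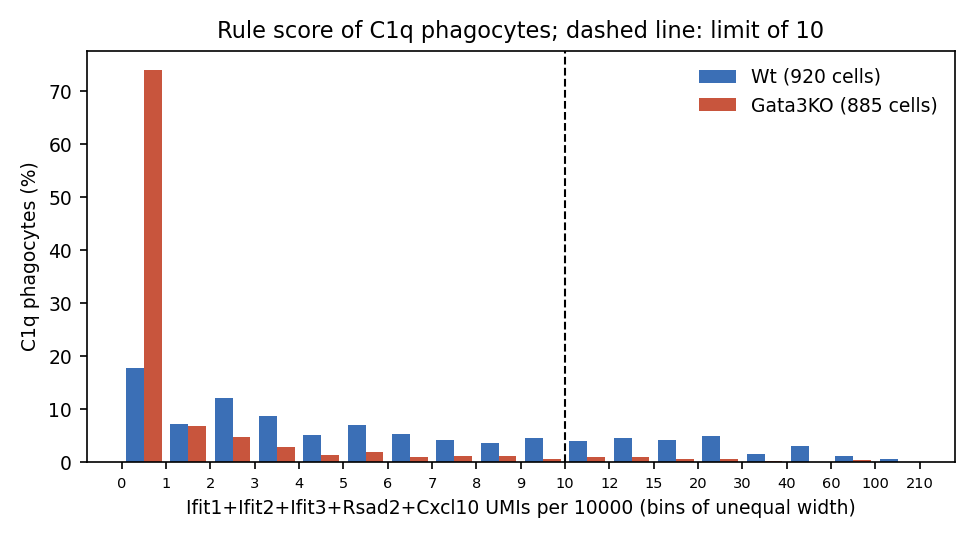
Share of C1q phagocytes (vertical axis, percent) by their rule score, the UMIs of the 5 interferon genes per 10000 (horizontal axis, bins of unequal width), for 920 Wt and 885 Gata3KO cells. The Gata3KO cells pile up in the lowest bin, while Wt cells spread on both sides of the dashed limit of 10, with 75 Wt and 16 Gata3KO cells from 8 to under 10.

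Just inside the limit, from 10 to under 12, lay 37 Wt and 9 Gata3KO members, and just outside, from 8 to under 10, lay 75 and 16 cells. Members with a score under 20 numbered 118 and 23, those from 20 to under 40 numbered 60 and 9, and those at 40 or more numbered 45 and 6. A further 55 Wt and 13 Gata3KO barcodes reached the score but were not members. In Wt 19 of them had no C1q UMI, 18 had too many *Cd209a* UMIs, 17 too many of *Hp* and *Vcan*, 12 too many of *Ccr7* and *Fscn1* and 1 too many collagen UMIs, some failing on more than 1 count. In Gata3KO these numbers were 8, 7, 3, 1 and 1.

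Once inside the limit, the 5 rule genes stood at similar levels in both genotypes, which the limit itself favours. *Ifit3* was at 674 CPM in Wt and 627 CPM in Gata3KO members, against 134 and 20.8 in comparison cells. *Rsad2* was at 389 and 494 CPM in members and 44.1 and 14.1 in comparison cells. *Ifit1* was at 277 and 386 CPM in members and 44.8 and 13.2 in comparison cells. The comparison cells of the 2 libraries thus differed more than the members did. *Ifit2* was at 460 and 291 CPM in members and 88.9 and 10.5 in comparison cells. *Cxcl10* was at 1313 and 983 CPM in members and 59.8 and 36.1 in comparison cells. *Ifit2* and *Cxcl10* were the lower ones in Gata3KO members, by log2 ratios of -0.66 (-0.93 to -0.40) and -0.42 (-0.56 to -0.27).

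**Figure D2:**
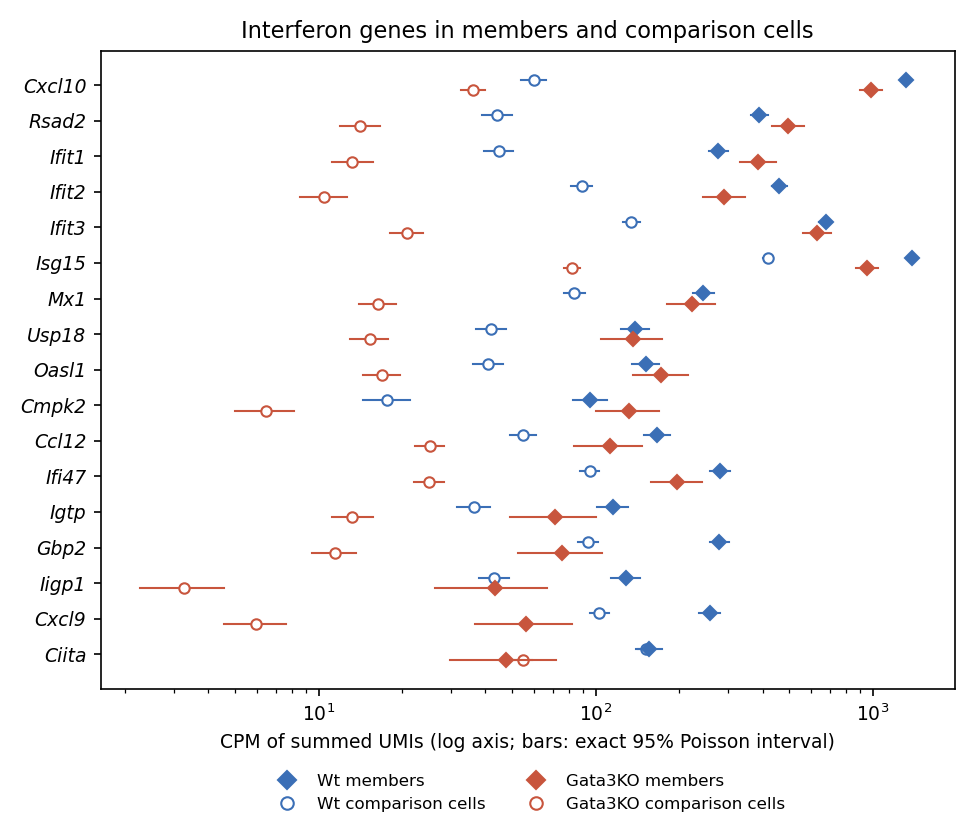
Level of 17 interferon-induced genes in CPM of summed UMIs (log axis) for members (filled) and comparison cells (open) of each library; bars are exact Poisson intervals. For the rule genes and *Isg15* the filled points of both libraries lie close together, while for *Gbp2*, *Iigp1*, *Cxcl9* and *Ciita* the Gata3KO members lie to the left of the Wt members.

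Members were set beside comparison cells of the same library. Of 2775 genes with enough counts in both libraries, 48 (1.73%) were at least 2-fold higher in members than in comparison cells of both libraries and 1 (0.036%), *Fabp4*, was 2-fold lower. This is the contrast the rule was built on, so nothing is read from these counts. *Isg15* was 3.30-fold higher in Wt and 11.6-fold in Gata3KO, *Oasl1*, a sensor-like protein that limits interferon output, 3.69-fold and 10.2-fold, and *Usp18*, which removes *Isg15* from proteins and damps the receptor, 3.31-fold and 8.90-fold. *Cmpk2*, a nucleotide kinase gene next to *Rsad2* on its chromosome, was 5.42-fold and 20.4-fold higher, and the GTPase genes *Igtp* and *Ifi47* were 3.17-fold and 2.96-fold higher in Wt and 5.37-fold and 7.83-fold in Gata3KO. The folds were larger in Gata3KO for each of these, and its comparison cells were lower for each. Of the 31 such genes outside the rule with a promoter in the table, 15 (48.4%) held the ISRE core and 2 (6.45%) the NF-kappaB consensus. Of all genes 3.99% and 5.14% did, and of genes with 10 or more UMIs 4.13% and 6.08%. These genes came from the contrast of the rule, so their shares are a description too.

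Some genes of lipid-laden, debris-clearing macrophages were lower in members of both libraries. *Fabp4*, a fatty acid carrier, was at 35.9 CPM in Wt members and 129 in Wt comparison cells, and at 23.7 and 92.5 CPM in Gata3KO. *Fabp5*, its relative, was at 1407 and 2436 CPM in Wt and 1302 and 3278 in Gata3KO, and *Gpnmb*, a membrane glycoprotein of lipid-laden macrophages, at 682 and 1054 CPM in Wt and 1173 and 2254 in Gata3KO. On the list of 13 lipid-handling macrophage genes, 13 were lower in Wt members than in Wt comparison cells (median log2 ratio -0.47) and 10 in Gata3KO (-0.34), against medians of 0.04 and 0.02 over all 6104 listed genes. By 2-fold or more, 2 were lower in Wt, and 2 lower and 1, *Mmp12*, higher in Gata3KO. Per cell the list hardly differed, with medians of 38.2 per 10000 in Wt members and 41.8 in Wt comparison cells, and 77.5 and 78.8 in Gata3KO.

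The members were not of a single kind, and the split differed between genotypes. *Cxcl10* supplied over 50% of the rule-gene UMIs in 60 of 223 Wt members and in 14 of 38 Gata3KO members, called *Cxcl10*-led below. This split was chosen after the values were seen and uses a rule gene, so what follows describes it and tests nothing. Among Wt members the *Cxcl10*-led cells still carried the antiviral genes: their median antiviral effector level was 52.6 per 10000, against 75.2 in the other Wt members and 33.0 in Wt comparison cells. Among Gata3KO members they did not: the median was 10.4 in the 14 *Cxcl10*-led cells, 72.4 in the 24 others and 9.70 in Gata3KO comparison cells. Above the comparison cells' 75th percentile were 39 of 60 Wt and 4 of 14 Gata3KO *Cxcl10*-led members, and 135 of 163 and 24 of 24 of the others. Above the comparison cells' median were 49 of 60 Wt and 8 of 14 Gata3KO *Cxcl10*-led members, so the interferon label went against 6 to 10 of these 14 cells, depending on the level taken. In 7 Gata3KO and 2 Wt members *Cxcl10* was the only rule gene detected, and 24 Gata3KO and 160 Wt members would have passed the limit without *Cxcl10*.

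The 14 Gata3KO *Cxcl10*-led cells were marked by inflammatory genes instead. The inflammatory mediator list (9 genes) had a median of 52.3 per 10000 in them, against 4.12 in the other Gata3KO members, 5.42 in Gata3KO comparison cells and 4.59 in Wt *Cxcl10*-led members. *Cxcl2* was at 4952 CPM in them and 504 in the other Gata3KO members, *Tnf*, an inflammatory cytokine, at 686 and 92.4 CPM, and *Nfkbia*, the NF-kappaB inhibitor that the factor itself induces, at 2895 and 708 CPM. *Isg15* went the other way, at 216 and 1532 CPM, as did *Mx1*, a GTPase gene on the antiviral effector list, at 29.4 and 373 CPM. In Wt the same split gave a smaller and mixed contrast: *Nfkbia* was at 584 CPM in *Cxcl10*-led and 362 CPM in other members, *Il1b* at 90.7 and 64.7 CPM and *Mx1* at 162 and 282 CPM, while *Cxcl2* was at 209 CPM in *Cxcl10*-led and 354 CPM in other members, *Tnf* at 74.1 and 69.5 CPM, and *Isg15* at 960 and 1569 CPM. Single cells weighed heavily in these sums, since 39.7% of the *Cxcl2* UMIs and 49.3% of the *Tnf* UMIs of the 14 cells came from 1 cell each. *Cxcl2* was found in 12 of the 14, *Tnf* in 11 and *Nfkbia* in 14.

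**Figure D3:**
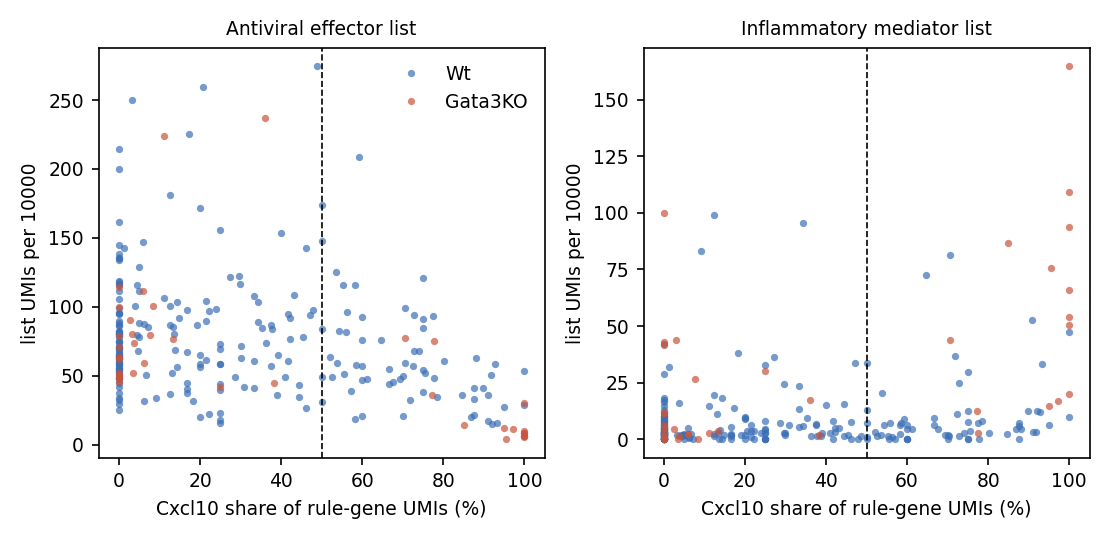
Each point is a member (223 Wt, 38 Gata3KO), placed by the share of its rule-gene UMIs that came from *Cxcl10* (horizontal axis, percent) and by the UMIs per 10000 of the antiviral effector list (left) or the inflammatory mediator list (right). To the right of the dashed line at 50%, most Gata3KO points lie low on the left panel and high on the right panel, with medians of 10.4 and 52.3, while Wt points have medians of 52.6 and 4.59.

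Over all members, antiviral genes were modestly lower in Gata3KO members, and the size depended on which cells were taken. Of the 28 measured antiviral effectors, 26 were lower in Gata3KO than in Wt members and 2 were higher, with a median log2 ratio of -0.53, against 0.02 over all 6104 listed genes (1 CPM was added to each level for list medians). The same list was 2-fold or more higher in members than comparison cells for 17 of 28 genes in Wt (background 1.64% higher, 0.246% lower) and 26 of 28 in Gata3KO (4.85% and 2.06%), the contrast of the rule. Between genotypes, 2 of 28 were lower by 2-fold and 0 higher, against a background of 4.33% lower and 4.14% higher. Without the *Cxcl10*-led members of either library the median was -0.09, with 0 of 28 lower and 1 higher by 2-fold (background 7.57% and 4.31%). It was also -0.09 with an interferon limit of 20, -0.25 with 3 or more C1q UMIs and -0.28 without the 5 deepest members of each library. Without the *Cxcl10*-led members *Isg15* was at 1569 CPM in Wt and 1532 in Gata3KO members (log2 ratio -0.03, interval -0.19 to 0.12). Of its Gata3KO UMIs 39.4% came from 1 cell. In the same cells *Usp18* was at 164 and 196 CPM (0.26, -0.21 to 0.70). In the *Cxcl10*-led members 22 of 28 were lower by 2-fold, and 0 higher, against a background of 11.3% and 9.19%, with a median of -1.82. In comparison cells, 24 of 28 were lower by 2-fold and 0 higher (background 3.03% and 0.819%), with a median of -1.54.

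The sensors of foreign nucleic acid followed the effectors. Among 12 measured RNA sensors, 0 were 2-fold lower or higher in Gata3KO members (median -0.42), and among 12 DNA sensors 1 was lower (median -0.48), counts near the background of 4.33% lower and 4.14% higher. In members not led by *Cxcl10* the medians were 0.03 and -0.04. In comparison cells they were -1.19 and -1.50, with 7 and 8 of 12 lower by 2-fold (background 3.03%). *Ifih1*, which detects long double-stranded RNA, was at 185 CPM in Wt and 151 in Gata3KO members, and *Ifi204*, of the DNA-binding Ifi200 family, at 642 and 582 CPM. *Zbp1*, a sensor of Z-form nucleic acid, was at 396 and 172 CPM, a log2 ratio of -1.20 (-1.55 to -0.87). *Zbp1* was at 415 and 289 CPM without the *Cxcl10*-led cells. Of the membrane restriction factors, *Ifitm3*, which stops viral entry, was at 2617 and 1362 CPM and *Bst2*, which tethers budding virus, at 1237 and 584 CPM. These 2 kept a lower level in the Gata3KO members that were not *Cxcl10*-led (1910 against 2751 CPM and 793 against 1255 CPM), though by less than 2-fold. *Ifi27* ran against its list, at 13.7 CPM in Wt and 84.1 in Gata3KO members.

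**Figure D4:**
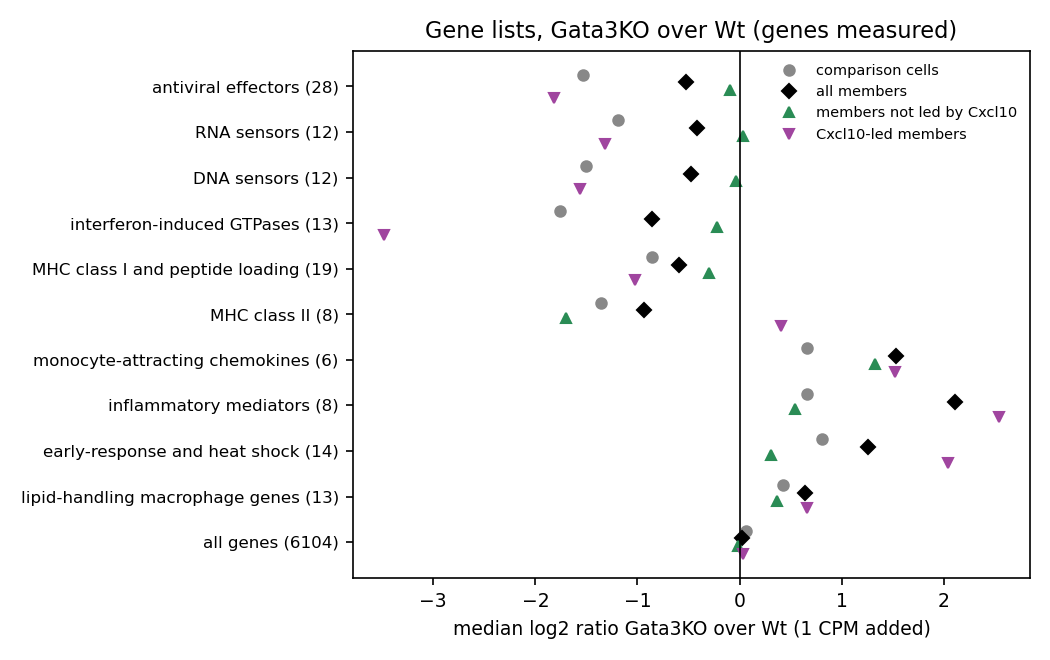
Median log2 ratio of Gata3KO over Wt (horizontal axis, 1 CPM added) for gene lists (rows, number of genes measured in brackets) in comparison cells, all members, members not led by *Cxcl10* and *Cxcl10*-led members. For antiviral effectors the members not led by *Cxcl10* sit near 0 (-0.09) while *Cxcl10*-led members and comparison cells sit at -1.82 and -1.54; for MHC class II the members not led by *Cxcl10* are lowest, at -1.70.

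Several single genes with an interferon link were among those furthest down in Gata3KO members; they were picked by that rank and stand for no list. *Gbp2* was at 280 CPM in Wt and 75.4 in Gata3KO members, a log2 ratio of -1.89 (-2.43 to -1.40), and at 258 and 116 CPM without the *Cxcl10*-led cells (-1.16, -1.75 to -0.62). *Ciita*, the master activator of MHC class II genes, was at 156 and 47.4 CPM (-1.71, -2.41 to -1.09), and at 184 and 53.9 CPM without the *Cxcl10*-led cells. *Nlrc5*, its counterpart for MHC class I, was at 81.4 and 12.9 CPM (-2.65, -4.12 to -1.50), and at 84.7 and 11.6 CPM without them. *Cxcl9*, a T cell chemokine, was at 257 and 56.0 CPM (-2.20, -2.83 to -1.63), but 80.8% of its Gata3KO UMIs came from 1 cell, and only 4 Gata3KO members had any, against 38 in Wt. *Cxcl9* was at 182 and 92.4 CPM without the *Cxcl10*-led cells. *Serpina3g*, a protease inhibitor gene, was at 95.1 and 15.1 CPM (-2.66, -3.99 to -1.59), and at 84.0 and 27.0 CPM without them. In the comparison cells the same genes were lower too, for example *Gbp2* at 93.9 and 11.4 CPM and *Ciita* at 152 and 54.4 CPM.

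Of 13 measured interferon-induced GTPase genes, 12 were lower in Gata3KO members and 5 of them by 2-fold or more (background 4.33% lower, 4.14% higher), with a median of -0.86. *Iigp1*, which attacks the vacuoles of intracellular parasites, was at 129 and 43.1 CPM, and *Gbp8* at 55.8 and 12.9 CPM, while *Irgm2* was at 44.9 and 58.2 CPM. Outside the *Cxcl10*-led members the median was -0.22 and 2 of 13 were 2-fold lower (background 7.57%). In the 14 Gata3KO *Cxcl10*-led members *Iigp1* had 0 UMIs, at least 8.03-fold lower than in the 60 Wt ones when 3 counts are taken as the floor for those cells together. All 13 were lower by 2-fold in that subset (background 11.3%), with a median of -3.48. In comparison cells 12 of 13 were lower by 2-fold and 0 higher (background 3.03% and 0.819%), with a median of -1.76.

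Antigen presentation genes were lower in Gata3KO members, class II more than class I. Of 19 measured class I and peptide-loading genes 18 were lower, 3 by 2-fold or more (median -0.59; background 4.33% lower). *B2m*, the light chain of class I, was at 4437 and 3451 CPM, and *Tap1*, a peptide transporter, at 351 and 170 CPM. Of 8 class II genes 7 were lower, 3 by 2-fold or more (median -0.93), against the same background. *H2-Ab1*, a class II beta chain, was at 3548 CPM in Wt and 1531 in Gata3KO members (-1.21, -1.33 to -1.10), and *Cd74*, the class II invariant chain, at 5527 and 3214 CPM (-0.78, -0.86 to -0.70). *Cd86*, a costimulatory ligand, was the exception at 94.1 and 140 CPM. Leaving out the *Cxcl10*-led members widened the class II difference in summed levels to a median of -1.70 with 6 of 8 lower by 2-fold (background 7.57%): *H2-Ab1* was then at 4339 and 862 CPM and *H2-Eb1* at 3757 and 604 CPM. In the *Cxcl10*-led members the median was 0.41, with 0 of 8 higher and 1 lower by 2-fold (background 9.19% and 11.3%). *H2-Ab1* was there at 1812 CPM in Wt and 2381 in Gata3KO. Per cell, the class II medians were 59.5 and 7.35 per 10000 in *Cxcl10*-led members and 113 and 11.7 in the others, lower in Gata3KO in both. The per-cell class II level was uneven, from 2.81 to 876 per 10000 UMIs in Wt members (median 85.9) and from 0 to 515 in Gata3KO members (median 10.9), so the 2 libraries overlapped, and 1 Gata3KO cell gave 35.5% of the *H2-Ab1* UMIs. That cell was *Cxcl10*-led, since the other Gata3KO members held 224 of the 710 UMIs. The size of the widening therefore rests in part on this cell. In comparison cells the class II medians per cell were 52.3 and 9.76. There, 6 of 19 class I and 6 of 8 class II genes were lower by 2-fold (background 3.03%). The median log2 ratios there were -0.86 for class I and -1.36 for class II.

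Chemokine genes differed in both directions. Those for neutrophils were higher in Gata3KO members. *Cxcl2* was at 309 CPM in Wt and 2462 CPM in Gata3KO members (log2 ratio 2.99, 2.85 to 3.14), and *Cxcl1* at 4.73 and 129 CPM. The *Cxcl2* interval leaves out the weight of 1 Gata3KO cell, given above, and *Cxcl1* rests on 10 Wt and 60 Gata3KO UMIs. Of 6 monocyte-attracting chemokines 4 were 2-fold or more higher in Gata3KO members and 1 lower (background 4.14% and 4.33%), with a median of 1.53. *Ccl7* was at 26.5 and 222 CPM (3.07, 2.58 to 3.56), *Ccl3* at 97.9 and 498 CPM (2.35, 2.07 to 2.62) and *Ccl4* at 225 and 804 CPM. *Ccl8*, the lower one, was at 248 and 103 CPM, and *Ccl12*, at 166 and 112 CPM, was lower by less than 2-fold. Without the *Cxcl10*-led cells the *Cxcl2* difference shrank to 354 against 504 CPM, while *Ccl3* stayed apart at 86.7 against 508 CPM and *Ccl7* at 28.9 against 246 CPM. In comparison cells *Cxcl2* was at 280 CPM in Wt and 697 CPM in Gata3KO, and *Cxcl1* at 10.3 and 70.4 CPM. The monocyte-attracting list had a median of 0.66 there, with 2 of 6 higher by 2-fold and 1 lower (background 0.819% and 3.03%). *Ccl5*, a T cell chemokine, cannot be read in Gata3KO members, since 99.0% of its UMIs came from 1 cell.

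Inflammatory mediators and early-response genes were higher in Gata3KO members, as lists mainly through the *Cxcl10*-led cells. Of 8 measured inflammatory mediators 8 were higher, 7 by 2-fold or more (background 4.14%), with a median of 2.11. *Il1b*, the interleukin 1 beta gene, was at 72.8 and 435 CPM (2.58, 2.27 to 2.89), *Tnf* at 70.9 and 354 CPM (2.32, 1.99 to 2.65) and *Nlrp3*, an inflammasome sensor, at 18.0 and 90.5 CPM. Of 14 early-response and heat-shock genes 14 were higher, 10 by 2-fold or more (median 1.26), among them *Egr1*, an immediate-early factor, at 45.4 and 351 CPM. In comparison cells the same lists had medians of 0.66 and 0.80, and without the *Cxcl10*-led members 0.54 and 0.31. Single genes differed in this: without those members *Tnf* was at 69.5 CPM in Wt and 92.4 in Gata3KO, while *Il1b* stayed apart at 64.7 and 316 CPM. Of the 74 genes 2-fold or more higher in Gata3KO members, 59 had a promoter in the table, and 10 of these (16.9%) held the NF-kappaB consensus and 5 (8.47%) the ISRE core, against 5.14% and 3.99% of all genes and 6.08% and 4.13% of genes with 10 or more UMIs. GAS matches were in 15.3% of them, against 9.55% of all genes. Of the 61 matched genes that were 2-fold or more lower, 9.84% held the NF-kappaB consensus, 13.1% the ISRE core and 9.84% GAS.

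Across all genes, 74 of 3095 (2.39%) were 2-fold or more higher and 85 (2.75%) lower in Gata3KO than in Wt members. In comparison cells 40 of 3011 (1.33%) were higher and 104 (3.45%) lower. With the *Cxcl10*-led cells left out, 42 of 2461 (1.71%) were higher and 67 (2.72%) lower. The 12 genes furthest up were *Chil3*, *Phlda1*, *Hmox1*, *Ccl7*, *Cxcl2*, *Egr1*, *Fn1*, *Il1b*, *F13a1*, *Ccl3*, *Tnf* and *Ier3*. With predicted genes left out, the 12 furthest down were *Acta1*, *Ifi208*, *Serpina3g*, *Nlrc5*, *Vars*, *Hist1h1b*, *Cxcl9*, *Gbp8*, *Gpr34*, *Gbp2*, *Cd72* and *Ciita*.

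*Chil3* and *Hmox1* were higher in Gata3KO members of both kinds and in the comparison cells. *Chil3*, which encodes a chitinase-like protein of monocytes and of alternatively activated macrophages (ENSMUSG00000040809, chromosome 3 at 106147554 to 106167564 of GRCm38), was at 15.1 CPM in Wt and 293 in Gata3KO members (log2 ratio 4.28, 3.71 to 4.88), found in 20 of 223 and 23 of 38 cells. In comparison cells it was at 14.1 and 237 CPM, so its ratio was about as large there. *Hmox1*, the haem-degrading enzyme gene, was at 79.5 and 944 CPM in members (3.57, 3.31 to 3.84) and 118 and 581 CPM in comparison cells, but 46.6% of the UMIs of Gata3KO members came from 1 cell. Without the *Cxcl10*-led members *Chil3* was at 15.1 and 370 CPM and *Hmox1* at 105 and 1559 CPM. *F13a1*, the coagulation factor XIII chain made by monocytes, was at 28.9 and 166 CPM in members and 31.0 and 136 in comparison cells. *Fn1*, the fibronectin gene, and *Phlda1* differed in members (51.1 against 392 CPM and 13.7 against 263 CPM) and hardly in comparison cells (50.6 against 54.0 and 27.4 against 30.1 CPM). Their Gata3KO UMIs lay in 10 and 13 of the 38 members, at most 31.9% and 28.7% of them in 1 cell.

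**Figure D5:**
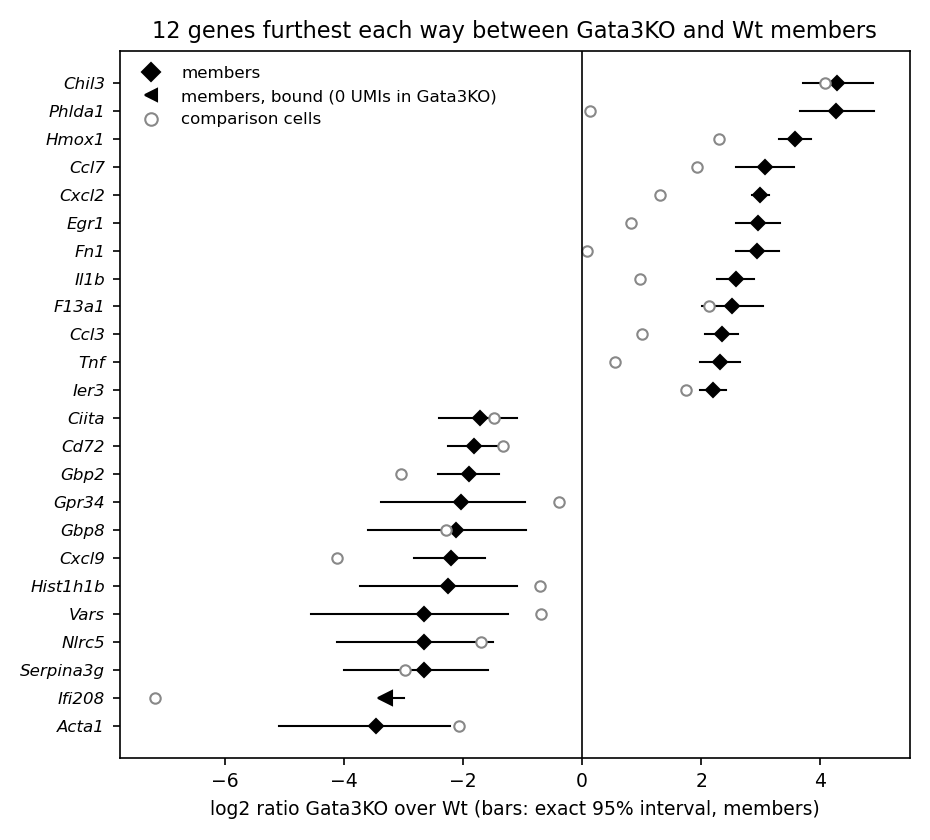
Log2 ratio of Gata3KO over Wt (horizontal axis) for the 12 genes furthest in each direction in members (filled diamonds with exact intervals) and for the same genes in comparison cells (open circles). *Chil3*, *F13a1*, *Ciita* and *Gbp8* have like ratios in both kinds of cell, while *Phlda1* and *Fn1* stand apart in members alone; the *Ifi208* triangle is a bound, as Gata3KO members had 0 UMIs.

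Among the lower genes, *Ifi208*, of the interferon-inducible Ifi200 family, had 135 UMIs in Wt members (63.9 CPM) and 0 in Gata3KO members, at least 9.87-fold lower with 3 counts as the floor over the Gata3KO members. *Cd72*, a receptor of B cells and macrophages, was at 396 and 112 CPM (-1.82, -2.25 to -1.42) and *Gpr34*, a lipid receptor gene of microglia and macrophages, at 62.0 and 15.1 CPM (-2.04, -3.38 to -0.95). *Hist1h1b*, a histone gene of dividing cells, was at 61.5 and 12.9 CPM and came from 11 Wt and 3 Gata3KO cells. *Acta1*, the skeletal muscle actin gene, was at 118 and 10.8 CPM in members and 196 and 46.8 CPM in comparison cells. It belongs to muscle fibres, and the whole muscle list followed it, as given below.

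Lists of cell identity and state differed among themselves. Of 14 measured macrophage genes 0 were 2-fold higher or lower in Gata3KO members (median 0.01), near what the background of 4.14% higher and 4.33% lower would give. The same background applies to the lists that follow. *C1qb* was at 4335 and 2833 CPM, and *Cx3cr1*, the gene that carries the Cre in the knockout strain, at 272 and 412 CPM. Of 13 lipid-handling genes 11 were higher, 3 by 2-fold or more (median 0.64), among them *Spp1*, the osteopontin gene, at 1492 and 3369 CPM. In comparison cells the median was 0.43, so the difference was not limited to members. Of 10 measured monocyte genes 5 were 2-fold or more higher and 1 lower (median 0.70), with *Ly6c2*, a marker of inflammatory monocytes, at 181 and 425 CPM and *Plac8* at 547 and 282 CPM. Of 13 cell-cycle genes 11 were lower, 2 by 2-fold or more (median -0.40). Without the *Cxcl10*-led cells 10 of 13 were 2-fold lower, against a background of 7.57% in those members, with a median of -2.24. *Mki67*, a proliferation marker, had 65.5% of all its Gata3KO member UMIs in 1 cell, so these few cells cannot give a rate of division.

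Genes that start and steer the response were measured in part. Of 11 interferon-type ligand genes on the list 1 was measured, *Ebi3*, at 17.5 and 25.9 CPM, and *Il27* had 18 and 3 UMIs. *Ifnb1*, *Ifng* and the interferon alpha genes listed were not in both tables, which hold only genes seen in several cells. The receptor genes were at 115 and 58.2 CPM for *Ifnar1*, 163 and 160 for *Ifnar2*, 208 and 181 for *Ifngr1* and 135 and 90.5 for *Ifngr2*. *Irf7*, a factor that both carries and amplifies the response, was at 1447 and 793 CPM in members and 909 and 209 in comparison cells. It was at 1566 and 1213 CPM in members not led by *Cxcl10* and at 1186 and 260 CPM in *Cxcl10*-led ones. *Irf8*, a factor of the monocyte lineage, was at 421 and 330 CPM in members and 362 and 354 in comparison cells. Of the feedback genes, *Socs3* was at 35.5 and 132 CPM (1.89, 1.38 to 2.40) and *Socs1* at 15.6 and 28.0 CPM (0.84, -0.21 to 1.81). Of 5 measured genes on the list of the interleukin 33 receptor pathway, 0 were 2-fold higher or lower in members, with *Ucp2*, a mitochondrial carrier gene, at 534 and 539 CPM and *Nfkb1* at 144 and 123 CPM.

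The summed levels of *Isg15*, *Mx1* and *Gbp2* rose with the rule score within members. From scores under 20 through 20 to under 40 to 40 or more, *Isg15* stood at 1037, 1443 and 1881 CPM in Wt and at 441, 973 and 3193 CPM in Gata3KO members. *Mx1* stood at 181, 196 and 406 CPM in Wt and at 65.4, 315 and 764 CPM in Gata3KO. *Gbp2* stood at 141, 345 and 439 CPM in Wt and at 27.5, 120 and 214 CPM in Gata3KO, below Wt in each range. The ranges are cut on the rule score and hold 23, 9 and 6 Gata3KO cells. Most Gata3KO *Cxcl10*-led members lay in the lowest range, with a median score of 13.0 against 20.8 in the others. *Isg15*, *Mx1* and *Gbp2* were at 216, 29.4 and 24.5 CPM in them. The Gata3KO rise thus also follows the mix of both kinds of member. In the highest Gata3KO range *Mx1* had 50 UMIs and *Gbp2* 14. A single Gata3KO cell in the highest range gave 35.5% of the *Isg15* UMIs of all Gata3KO members. For *Isg15*, neither an order between genotypes nor the size of the Gata3KO step is read there. *Cxcl2* was at 3304, 1353 and 550 CPM in these ranges in Gata3KO members and at 187, 317 and 505 CPM in Wt. A single cell weighed heavily in the Gata3KO *Cxcl2* UMIs, as given above, so no trend with the score is read there.

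Markers of other cell types were low in members and some moved with genotype. Of 11 skeletal muscle genes 10 had UMIs in each library's members, at 469 CPM summed in Wt and 140 in Gata3KO members, and at 758 and 192 CPM in comparison cells. With barcodes of over 5 muscle UMIs left out, the log2 ratio of Gata3KO over Wt members was -1.89 for *Gbp2*, 2.95 for *Cxcl2* and 4.39 for *Chil3*, close to the values above, and 2.77 for *Hmox1*, below its 3.57. Dendritic cell genes summed to 69.5 CPM in Wt (11 of 11 with UMIs) and 21.6 in Gata3KO members (5 of 11; *Flt3*, *Xcr1* and *Ccr7* at 0), beside the class II genes that those cells also express, and their part in the class II difference was not tested. B cell genes summed to 193 and 90.5 CPM, mostly *Ighm*, and *Cd79a* and *Ms4a1* were not in both tables. Neutrophil genes summed to 79.9 and 53.9 CPM (4 and 3 of 10 with UMIs), mostly *Csf3r*, with *S100a9* at 0 in both and *Ly6g* not in both tables. T and natural killer cell genes summed to 14.2 and 10.8 CPM, with *Cd3d* at 0 in both and *Cd3e* and *Cd3g* not in both tables. Plasmacytoid dendritic cell genes, cells known for making type I interferon, summed to 168 and 250 CPM, mostly *Tcf4*, with *Siglech* at 0 in Gata3KO members. Fibroblast and endothelial genes summed to 57.7 and 36.6 CPM, and mast cell, basophil and eosinophil genes to 0.946 and 0 CPM.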

How the data were processed

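Per the labels, sorted muscle leukocytes of 1 Wt and 1 Gata3KO library went through droplet-based sequencing of single cells. The authors deposited a table of raw UMI counts per gene and barcode for each; the submitters' processing notes name Cell Ranger 3.0.1, Seurat 3.0.2, R 3.6.1 and mm10, with no roles given. UMIs of members and of comparison cells were summed per library and divided by their totals (CPM). With 1 library per genotype no test was made: levels carry exact Poisson intervals, ratios exact conditional binomial ones and shares Clopper-Pearson ones, at 95%. A ratio called 2-fold needed 50 CPM in 1 library and 100 UMIs over both, and lists used genes at 20 CPM or more in members of 1 library with 1 CPM added. A gene at 0 was set against a floor of 3 counts. The named genes were the 12 furthest in each direction between genotypes, the 15 between members and comparison cells, and the ends of each list by ratio and level. *Mx1*, *Irf7*, *Ly6c2*, *Plac8*, *Spp1*, *Mki67*, *H2-Ab1* and the *Cxcl10* split were chosen after values were seen. The members and lists were chosen with earlier results of these data known. Scripts, tested on simulated data, used Python 3.11.15, numpy 2.4.6, pandas 2.3.3, scipy 1.17.1 and scanpy 1.11.5. Promoters came from RefSeq (GRCm38.p6), and gene positions from GENCODE (GRCm38). Some measured genes are not reported here.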

Additional observations from a re-analysis of the deposited data

Results flagged for a closer look

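*Mmp12*, a macrophage elastase gene, differed between members and comparison cells in opposite directions in the 2 libraries. In Wt it was at 40.7 CPM in members and 168 CPM in comparison cells, a log2 ratio of -2.04. In Gata3KO it was at 172 CPM in members and 44.3 CPM in comparison cells, a log2 ratio of 1.96. The difference was not tested. The Wt member UMIs came from 19 cells and the Gata3KO ones from 5, with 53.8% of them in 1 cell.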

How the results depend on the processing

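Of 192 values of the main results under the other settings, 146 stayed within the limits set for each and 46 moved; 0 reversed. The cause was not tested. No paired analysis was possible because each genotype is 1 library. Leaving out the *Cxcl10*-led members, and leaving out the 5 deepest members, were chosen after seeing the data. The Gata3KO minus Wt share of barcodes that passed the depth and mitochondrial limits was -31.25 points with a limit of 5, -7.889 with 20, -11.91 with a score without *Cxcl10*, -19.83 with the rule on thinned counts and -12.97 without the *Cxcl10*-led members. For C1q phagocytes these were -38.74, -9.718, -14.68, -24.71 and -16.2. Genes 2-fold higher in Gata3KO members numbered 34 with a score without *Cxcl10*, 42 without the *Cxcl10*-led members, 31 from thinned sums and 357 with no CPM filter. Genes lower numbered 55 with a limit of 5, 46 with the thinned rule, 49 from thinned sums, 624 with no filter and 35 at 100 CPM. Genes higher in members of both libraries numbered 19 from thinned sums and 120 with no filter. Genes lower in members of both numbered 0 with a limit of 5, the thinned rule, thinned sums, cells weighted alike or 100 CPM, 2 with a limit of 20 or without the 5 deepest members, 3 with 10% mitochondrial UMIs and 28 with no filter. The antiviral median was -0.6465 with a limit of 5, -0.09261 with 20, -0.1368 with a score without *Cxcl10*, -0.6128 with 10% mitochondrial UMIs, -0.2507 with 3 C1q UMIs, -0.6079 without barcodes of over 5 muscle UMIs, -0.09199 without the *Cxcl10*-led members, -0.2843 without the 5 deepest and -0.6241 with median-of-ratios scaling. The GTPase median was -0.3576 with a limit of 20, -0.3381 with a score without *Cxcl10*, -0.2099 without the *Cxcl10*-led members, -0.5308 with cells weighted alike and -0.5393 from thinned sums; the 20 CPM filter was applied anew in each setting, so the value without the *Cxcl10*-led members differs slightly from that of the report's fixed genes. The MHC class II median was -1.713 with a score without *Cxcl10* and -1.702 without the *Cxcl10*-led members. The 38 Gata3KO members and their 463889 UMIs limit the precision of every ratio between members.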

Other observations

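*Ifi208* was rarely counted in the whole Gata3KO library, with 415 UMIs over all Wt barcodes and 5 over all Gata3KO barcodes. In comparison cells it had 84 UMIs in Wt and 1 in Gata3KO.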
